A study of Mus musculus with 8 samples.

Results

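The odorant receptor (OR) genes examined here are the 38 with the numbers Olfr1328 to Olfr1371 or Olfr1397 to Olfr1416 that the array measured unambiguously, out of 1015 OR genes and 19928 genes in all. The rule that picks them uses the gene symbol and no measured value. By the gene table of mouse assembly GRCm38.p6 they lie on 6 chromosomes in 7 groups of neighbouring OR genes, in which adjacent genes start less than 1 Mb apart. The number range holds 48 genes of that table. Of the other 10, 9 are represented only by transcript clusters shared with other genes, and 1, Olfr1358, has no transcript cluster with a gene name.

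RNA came from olfactory mucosa of mice at postnatal day 3 on a mixed 129 x C57BL/6J background, with 1 array per mouse. The 4 conditional knockout (cKO) mice were 123Cre:Lhx2(fl/fl). Of the 4 control littermates, controls 1 and 2 were Lhx2(fl/+) and controls 3 and 4 were 123Cre:Lhx2(fl/+), so that every mouse carried at least 1 floxed Lhx2 allele and the latter pair also carried Cre. In these mice the Cre of the 123Cre transgene appears in immature olfactory sensory neurons (OSNs), and by the tissue sections of the study the deletion reaches only part of them. Replicates are separate mice, and litters are not given in the labels.

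ORs are G-protein-coupled receptors that bind odorants at the cilia of OSNs. Each OSN transcribes 1 allele of 1 OR gene at a high level, and the genes lie in clusters scattered over most chromosomes. OR promoters and the enhancers near the clusters hold homeodomain sites, which Lhx2 can bind, and O/E-like sites, which Ebf proteins bind. The abundance of an OR mRNA in whole mucosa therefore depends on how many OSNs chose that gene and on how much RNA each makes, and these cannot be told apart in bulk tissue.

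Membership of a small cluster held for most of the genes but not all. The groups on chromosomes 4, 7, 10 and 13 hold 15, 9, 10 and 13 OR entries in the gene table, and 1 group on chromosome 1 (group a) holds 8. Olfr1402 on chromosome 3 has no OR neighbour within the limit. Olfr1404, Olfr1406 and Olfr1408 belong to a larger group of 26 OR entries on chromosome 1 (group b). Number and place also part company for Olfr1336, which lies on chromosome 7 although its numerical neighbours lie on chromosome 4. The older MOR names, which sort receptors by sequence similarity, place the 38 genes in 13 families.

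The promoter table of RefSeq (GRCm38.p6) held a window of 300 bases, from 250 before to 50 after the annotated gene start, for 35 of the 38 genes. In 24 of these the gene model starts at the start codon, so the window lies before the coding sequence and need not hold the promoter. The homeodomain core TAATTA was found in 1 of the 35 windows (2.86%, against 18.6% of all 944 OR windows and 5.29% of all 32851 windows). TAATGA, another homeodomain core, was in 8 (22.9%, against 28.8% and 9.78%), and the O/E-like motif CCCNNGGGA in 2 (5.71%, against 2.54% and 6.56%), with both strands searched for each. A match is a string of letters and not a shown binding site. The 250 bases before the start are given for 3 chromosome 10 genes that hold a match and whose mRNAs fell. They are also given for Olfr1362 of chromosome 13, which holds a match and whose value hardly differed. In each the gene start of the model lies upstream of its start codon. The sequences are written in the direction of the gene, with motif matches in capitals.
Olfr1357, chr10:78618075-78618324, minus strand: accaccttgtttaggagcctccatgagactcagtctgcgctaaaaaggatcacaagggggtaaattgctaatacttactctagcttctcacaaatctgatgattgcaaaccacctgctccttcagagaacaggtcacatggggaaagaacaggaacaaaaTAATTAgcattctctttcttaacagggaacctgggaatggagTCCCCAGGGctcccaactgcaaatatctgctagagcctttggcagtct
Olfr1355, chr10:78875299-78875548, plus strand: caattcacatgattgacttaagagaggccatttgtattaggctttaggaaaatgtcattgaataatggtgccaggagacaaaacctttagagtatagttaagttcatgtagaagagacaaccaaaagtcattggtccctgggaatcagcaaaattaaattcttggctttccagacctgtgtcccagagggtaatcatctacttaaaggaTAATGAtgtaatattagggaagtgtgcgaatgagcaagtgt
Olfr1353, chr10:78963059-78963308, plus strand: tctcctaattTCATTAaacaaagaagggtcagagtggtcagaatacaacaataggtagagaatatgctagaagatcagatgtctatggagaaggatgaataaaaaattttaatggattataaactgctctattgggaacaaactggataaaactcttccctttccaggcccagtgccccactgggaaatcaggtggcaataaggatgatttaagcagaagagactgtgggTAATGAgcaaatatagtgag
Olfr1362, chr13:21612005-21612254, minus strand: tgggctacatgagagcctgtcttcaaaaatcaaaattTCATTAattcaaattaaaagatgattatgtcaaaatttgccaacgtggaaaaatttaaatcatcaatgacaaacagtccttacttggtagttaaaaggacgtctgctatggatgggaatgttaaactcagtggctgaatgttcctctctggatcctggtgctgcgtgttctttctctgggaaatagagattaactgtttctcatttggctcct
Olfr1357 is the only one of the 35 with both TAATTA, starting 90 bases before the gene start, and CCCNNGGGA, starting 48 bases before it. Olfr1355 and Olfr1353 hold TAATGA 41 and 20 bases before the start, and Olfr1353 holds its reverse complement 240 bases before it. Olfr1362, too, has that reverse complement, 213 bases before its start. The 9 genes with either homeodomain core in the window had a median log2 difference of -0.78, and the 26 with a window but no such core had -0.68. At an adjusted p under 0.01 by limma, 3 of the 9 fell and 3 of the 26. The latter, Olfr1340, Olfr1342 and Olfr1356, held none of the motifs searched, and their sequences are not shown.

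Before the receptors, the arrays were checked. The array medians lay between 8.82 and 8.89 on the log2 scale. The Lhx2 cluster, a value for the whole transcript and so not limited to the floxed exons, was lower in all 4 cKO mice (12.55 to 13.03) than in all 4 controls (13.09 to 13.20), with a difference of -0.24 (SE 0.11, adjusted p = 0.337 by limma). Emx2 differed by -0.04 (SE 0.05, adjusted p = 0.756). The labelled tissue was borne out by Omp, the marker protein of mature OSNs, at 13.44 in controls, and none of the markers of mature or immature OSNs, sustentacular cells or glia had a control mean under the background level defined below. Mouse 2 of the cKO group stood apart, being the lowest cKO mouse in Lhx2, in the mature OSN markers and in most ORs. It is also the only cKO mouse whose sample title carries the letter B, a letter of unstated meaning that controls 1 and 2 share. Where leaving it out changed whether a receptor passed the threshold, the value without it is given too.

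Lower abundance was general among the 38 OR mRNAs, and 6 passed the threshold. Olfr1340, Olfr1342, Olfr1353, Olfr1355, Olfr1356 and Olfr1357 fell at an adjusted p under 0.01 by limma, which is 15.8% of the 38, against 2.07% of all genes tested and 30.7% of the 977 other OR genes. None rose by limma (0 genes), where 0.0602% of all genes did, and 0 did so with unadjusted p below 0.05, against 5.13%. At an adjusted p under 0.05 there were 25 lower (65.8%, against 5.17% of all genes and 66.9% of the other ORs). Without adjustment 35 had a p below 0.05 and were lower (92.1%, against 9.87% of all genes and 92.4% of the other ORs). The fitted difference was below 0 for all 38, as it was for 37.7% of all genes and 99.4% of the other ORs. In 32 of the 38 every cKO mouse lay below every control (84.2%, against 8.43% of all genes and 80.1% of the other ORs), and in 0 did every cKO mouse lie above (3.18%). After adjustment the methods' t-test called 0 of the 38, or 3 at the looser threshold of 0.05. That test passed 1 of all 19928 genes at 0.01 and 0 of the 977 other OR genes. Its counts of 0, here and below, therefore cannot set any group of genes apart. With the title letter as a block in limma 13 fell (34.2%, against 3.03% of all genes and 40.8% of the other ORs). These were the 6 above and Olfr1410, Olfr1404, Olfr1361, Olfr1339, Olfr1338, Olfr1331 and Olfr1328.

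**Figure D1:**
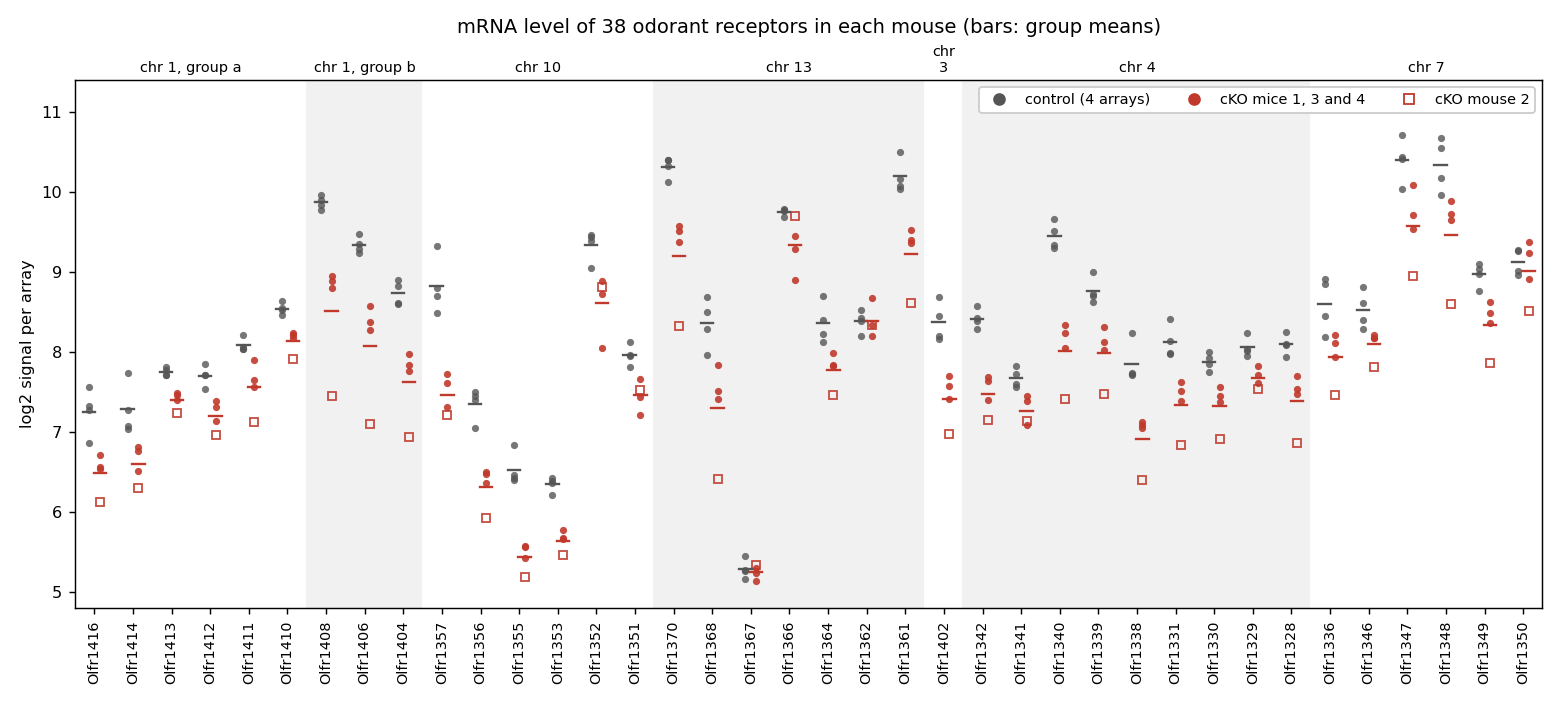
Log2 signal of the 38 OR mRNAs (vertical axis) in each mouse, with genes in chromosomal order on the horizontal axis, controls in grey, cKO mice in red and cKO mouse 2 as an open square. Bars are group means; in 32 genes all cKO points lie below all control points, and the 6 exceptions include Olfr1362, Olfr1367 and Olfr1350.

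The median log2 difference over the 38 genes was -0.71, with quartiles of -0.97 and -0.50, which corresponds to 61.2% of the control level. Over the other 977 OR genes the median was -0.86, with quartiles of -1.17 and -0.57, and over all genes tested it was 0.03. The range ran from Olfr1340 at 36.7% of control to Olfr1362 at 99.8%. The other ORs reached further, down to a log2 difference of -2.50. Without mouse 2 the medians were -0.60 for the 38 and -0.72 for the other ORs.

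**Figure D2:**
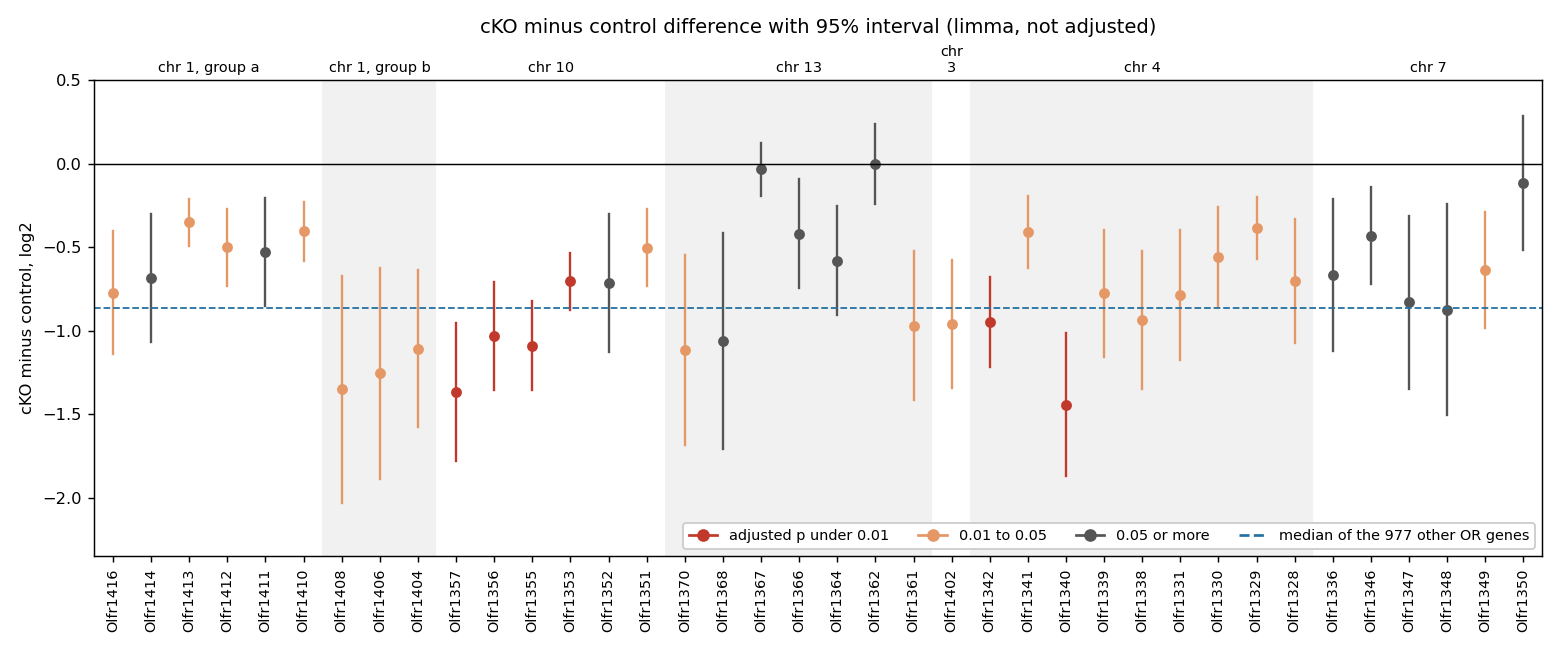
The cKO minus control log2 difference (vertical axis) of each gene in chromosomal order, with its 95% interval from limma before any adjustment. Red points passed an adjusted p under 0.01 (6 genes) and orange points lay between 0.01 and 0.05 (19 genes), and the dashed line at -0.86 is the median of the other OR genes.

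On chromosome 10, 4 of 6 OR mRNAs fell (66.7%), and on chromosome 4, 2 of 9 did (22.2%), against 2.07% of all genes and 30.7% of the other ORs. The order of these groups depended on the fit. With the title letter as a block 4 fell on chromosome 10 and 6 on chromosome 4, and without mouse 2 there were 4 on each. With low genes left out 1 fell on chromosome 10 and 2 on chromosome 4, but Olfr1353, Olfr1355 and Olfr1356 were not in that fit. Olfr1357 (family MOR128) read 7.73, 7.21, 7.31 and 7.62 in cKO mice 1 to 4 and 8.49, 8.80, 9.33 and 8.70 in controls 1 to 4. The groups were apart by 0.76, and the difference was -1.37 (SE 0.18, adjusted p = 0.00482 by limma), or 38.8% of control. Olfr1356 (MOR142) read 6.50, 5.93, 6.47 and 6.37 against 7.40, 7.45, 7.05 and 7.50, again with no overlap and a difference of -1.03 (SE 0.14, adjusted p = 0.00528).

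Among the 4 MOR139 receptors of chromosome 10, Olfr1355 and Olfr1353 fell. Olfr1355 read 5.58, 5.19, 5.56 and 5.43 in cKO mice and 6.46, 6.41, 6.42 and 6.84 in controls (difference -1.09, SE 0.12, adjusted p = 0.00265). Olfr1353 read 5.68, 5.46, 5.66 and 5.77 against 6.39, 6.36, 6.21 and 6.43 (-0.70, SE 0.08, adjusted p = 0.00265). The median level of 162 vomeronasal receptor genes, which OSNs of the mucosa do not use and which therefore serve as a background level, was 5.36, although probes of different genes differ in affinity. Both genes lay close to that level in cKO mice, with cKO means of 5.44 and 5.64. Signal of Olfr1355 may be shared, since a further transcript cluster, left out here, names it with Olfr1354 and Olfr8. Olfr1352 read 8.72, 8.81, 8.89 and 8.05 against 9.43, 9.47, 9.05 and 9.39, and with -0.71 (SE 0.18, adjusted p = 0.0594) it did not pass. There mouse 4 was lowest, not mouse 2. Olfr1351 differed by -0.50 (adjusted p = 0.0228), and mouse 4 was again lowest.

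The 9 receptors on chromosome 4, of the related families MOR258 and MOR259, did not overlap between the groups in a single case, and 2 of them fell. Every cKO mouse likewise lay below every control in 80.1% of the other ORs and 8.43% of all genes. Olfr1340 had the largest difference of the 38, at -1.44 (SE 0.19, adjusted p = 0.00448). It read 8.34, 7.41, 8.05 and 8.24 in cKO mice and 9.51, 9.31, 9.66 and 9.34 in controls, a gap of 0.96 between the highest cKO mouse and the lowest control. Olfr1342 read 7.64, 7.16, 7.40 and 7.69 against 8.28, 8.39, 8.57 and 8.43 (-0.95, SE 0.12, adjusted p = 0.00414).

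The remaining 7 genes of chromosome 4 had adjusted p-values between 0.01 and 0.05 and differences from -0.94 (Olfr1338) to -0.39 (Olfr1329). Olfr1329 read 7.61, 7.54, 7.71 and 7.83 in cKO mice and 8.03, 7.95, 8.24 and 8.01 in controls (adjusted p = 0.0288), with only 0.12 between the groups. Olfr1341 of family MOR258 differed by -0.41 (adjusted p = 0.0414). Without mouse 2, Olfr1338 (-0.76, adjusted p = 0.00933) and Olfr1328 (-0.53, adjusted p = 0.00803) passed. With the title letter as a block in limma, these genes (adjusted p = 0.00305 for Olfr1338 and 0.00636 for Olfr1328), Olfr1339 (adjusted p = 0.00869) and Olfr1331 (adjusted p = 0.00876) passed. The 9 genes of chromosome 4 ranged from 36.7% to 76.6% of control. Signal may be shared between them, since 3 further transcript clusters, left out here, each name 5 to 8 receptors of this group at once.

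The 3 MOR267 receptors of chromosome 1, group b, had large differences with large errors. Olfr1408 read 8.95, 7.45, 8.80 and 8.88 in cKO mice 1 to 4, and 9.90, 9.96, 9.84 and 9.77 in controls (-1.35, SE 0.30, adjusted p = 0.0336). Olfr1406 read 8.58, 7.10, 8.27 and 8.37 against 9.35, 9.47, 9.29 and 9.23 (-1.26, SE 0.28, adjusted p = 0.0342). The third, Olfr1404, differed by -1.11 (adjusted p = 0.0164), and passed with the title letter as a block (-1.20, adjusted p = 0.00762).

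In these genes the controls were tightly grouped and mouse 2 lay far below the other mutants (a difference of -1.42 from their mean in Olfr1408). Without mouse 2 the differences were smaller, at -0.99, -0.93 and -0.88, yet all 3 passed, with adjusted p-values of 0.000116, 0.000489 and 0.00082. The group thus had 0 calls with all mice by limma (3 with unadjusted p below 0.05) and 3 without mouse 2. Among the other ORs the share called was 30.7% with all mice and 50.5% without mouse 2.

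The 6 receptors of chromosome 1, group a, had differences from -0.77 to -0.35. By limma, as by the methods' t-test, none was called (0 genes, 6 with unadjusted p below 0.05 by limma). In all 6 every cKO mouse lay below every control, as in 80.1% of the other ORs and 8.43% of all genes. The 4 MOR208 genes had differences between -0.53 and -0.35, of which Olfr1413 was the smallest. It read 7.49, 7.24, 7.47 and 7.40 in cKO mice and 7.81, 7.77, 7.71 and 7.71 in controls (-0.35, SE 0.06, adjusted p = 0.0127). Without mouse 2, Olfr1413 (-0.30, adjusted p = 0.00981) and Olfr1410 (-0.33, adjusted p = 0.0084) passed, and Olfr1410 did so with the title letter as a block (-0.45, adjusted p = 0.0036). The MOR103 genes beside them, Olfr1416 and Olfr1414, differed by -0.77 (adjusted p = 0.0274) and -0.69 (adjusted p = 0.0527). A transcript cluster left out here names both genes together with Olfr1415, so their signal may be shared.

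On chromosome 13 the differences ran from -1.12 to -0.0024. None of the 7 genes passed by limma (0 genes, 5 with unadjusted p below 0.05), nor by the methods' t-test. Olfr1370 read 9.57, 8.32, 9.38 and 9.51 in cKO mice and 10.33, 10.40, 10.13 and 10.40 in controls (-1.12, SE 0.25, adjusted p = 0.036), and it passed without mouse 2 (-0.83, adjusted p = 0.000705). Olfr1368 (-1.06, adjusted p = 0.0752) and Olfr1361 (-0.97, adjusted p = 0.0225) had differences of like size. Olfr1361 passed without mouse 2 (-0.76, adjusted p = 0.00471) and with the title letter as a block (-1.10, adjusted p = 0.00269). All 3 belong to family MOR256.

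By contrast, Olfr1362, also of MOR256, read 8.67, 8.34, 8.34 and 8.20 in cKO mice and 8.21, 8.39, 8.53 and 8.43 in controls. The groups overlapped fully, and the difference was -0.0024 (SE 0.11, 95% interval -0.24 to 0.24, adjusted p = 0.994). This interval does not reach the median of the 38. Olfr1367 gave a low signal, at 5.30, 5.33, 5.24 and 5.14 against 5.27, 5.17, 5.27 and 5.46 (-0.03, SE 0.07, adjusted p = 0.874). It was the only member with a control mean under the background level of 5.36.

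Olfr1366, the only MOR130 receptor, departed from the rest in another way. Its 4 controls lay within 0.10 of one another (9.76, 9.69, 9.79 and 9.77), while the cKO mice read 9.45, 9.70, 9.29 and 8.90. Mouse 2, the lowest mutant in most ORs, was the highest here and reached the controls, and mouse 4 was lowest. The difference was -0.42 (SE 0.14, adjusted p = 0.184), or -0.54 (adjusted p = 0.0347) without mouse 2.

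Olfr1402, alone on chromosome 3 and the only MOR217 receptor, just missed the threshold. It read 7.70, 6.98, 7.42 and 7.57 in cKO mice and 8.17, 8.69, 8.45 and 8.21 in controls, with no overlap (-0.96, SE 0.17, adjusted p = 0.0124). Without mouse 2 it passed at -0.81 (adjusted p = 0.00798).

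On chromosome 7 neither limma nor the methods' t-test called any of the 6 receptors (0 genes, 5 with unadjusted p below 0.05 by limma). Olfr1347 read 10.08, 8.95, 9.71 and 9.54 in cKO mice and 10.43, 10.72, 10.04 and 10.42 in controls (-0.83, SE 0.23, adjusted p = 0.0818). Olfr1348 read 9.89, 8.61, 9.72 and 9.65 against 10.18, 10.68, 9.97 and 10.56 (-0.87, SE 0.28, adjusted p = 0.143). In Olfr1347 the highest cKO mouse reached the lowest control.

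Olfr1350, the only MOR222 receptor, had the third smallest difference of the 38. It read 9.38, 8.51, 9.24 and 8.91 in cKO mice and 8.96, 9.26, 9.01 and 9.27 in controls (-0.12, SE 0.18, 95% interval -0.52 to 0.28, adjusted p = 0.826). Mice 1 and 3 of the cKO group lay above controls 1 and 3, and without mouse 2 the difference was 0.05. Its neighbour Olfr1349 (MOR232) differed by -0.64 (adjusted p = 0.0462).

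The 6 receptors of family MOR103, on chromosomes 1 and 7, varied together among the controls. Control 2 was the highest control in all 6, and control 3 the lowest in 5, the exception being Olfr1414. The family mean was 8.64, 9.07, 8.40 and 8.83 in controls 1 to 4, and 8.32, 7.54, 8.18 and 8.07 in cKO mice 1 to 4. The chromosome 4 families differed from this, with control 3 the highest control in 3 of 4 MOR258 and 4 of 5 MOR259 genes. There control 2 was the lowest control in 1 MOR258 and 2 MOR259 genes. Control 2 was the highest control in 14 of the 38 genes, with all 3 MOR267 genes and Olfr1402 among them. Of 10 further MOR103 genes outside the 38, control 3 was lowest in 8, control 4 highest in 5 and control 2 highest in 4. Among the 977 other OR genes, control 3 was lowest in 46.4% and control 2 highest in 35.8%. Members of a family are similar in sequence and may share probe signal, and whether this plays a part in their common course was not tested.

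**Figure D3:**
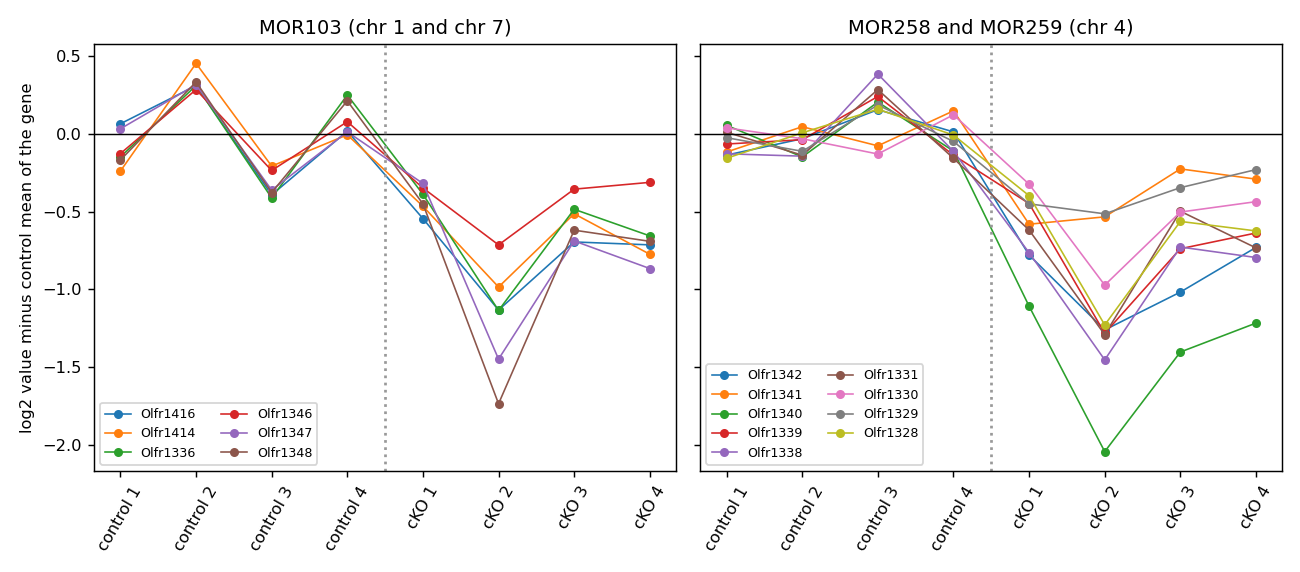
Log2 value of each gene minus its own control mean (vertical axis) in the 4 controls and 4 cKO mice, for the 6 MOR103 genes (left) and the 9 MOR258 and MOR259 genes (right), with lines joining the values of 1 gene. Control 2 is highest and control 3 low in MOR103, whereas control 3 is the highest control for most chromosome 4 genes, and cKO mouse 2 is the lowest mutant for all but Olfr1341.

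Spread among the mutants exceeded that among the controls. The SD of the cKO mice was the larger in 29 of the 38 genes, with a median of 0.32 against 0.16 in controls. Mouse 2 was the lowest mutant in 32 genes (84.2%, against 83.5% of the other ORs) and lay a median of 0.54 below the mean of the other mutants. The 6 genes in which it was not lowest were Olfr1341, Olfr1351, Olfr1352, Olfr1362, Olfr1366 and Olfr1367, and mouse 4 was lowest in 5 of these. Without mouse 2, 16 of the 38 fell at an adjusted p under 0.01, the 6 named above among them. That is 42.1%, against 3.30% of all genes and 50.5% of the other ORs. In 33 all cKO mice then lay below all controls (86.8%, against 9.41% of all genes and 80.5% of the other ORs). Leaving out any other mouse gave 0 to 6, with 0 without control 1, 1 without control 2, control 4 or cKO mouse 3, 3 without cKO mouse 4 and 4 without control 3. Shares over all genes were not counted for these fits, so whether calls dropped alike among other genes was not tested. By title letter the median difference was -0.55 within letter A (3 cKO, 2 controls) and -1.17 within letter B (1 cKO, 2 controls).

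Markers of mature OSNs were lower alongside the receptors. Of 23 listed genes 8 fell and none rose, among them the adenylyl cyclase of odor transduction Adcy3 (-0.86, SE 0.09, adjusted p = 0.00267), Omp (-0.97, SE 0.14, adjusted p = 0.00605) and the sodium-calcium exchanger gene Slc8a1 (-0.86, SE 0.07, adjusted p = 0.000974). The mean of the list was 11.29, 10.72, 11.21 and 11.17 in cKO mice 1 to 4, and 11.77, 11.81, 11.82 and 11.85 in controls. Without mouse 2 the list differed by -0.59 in place of -0.71. The mean of the 38 receptors was 7.92, 7.30, 7.79 and 7.75, and 8.36, 8.51, 8.39 and 8.45. On each array the receptor mean minus the list mean was therefore nearly constant, at -3.41 ± 0.03 in cKO mice and -3.38 ± 0.05 in controls (SD, n = 4 per group), and the groups overlapped.

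**Figure D4:**
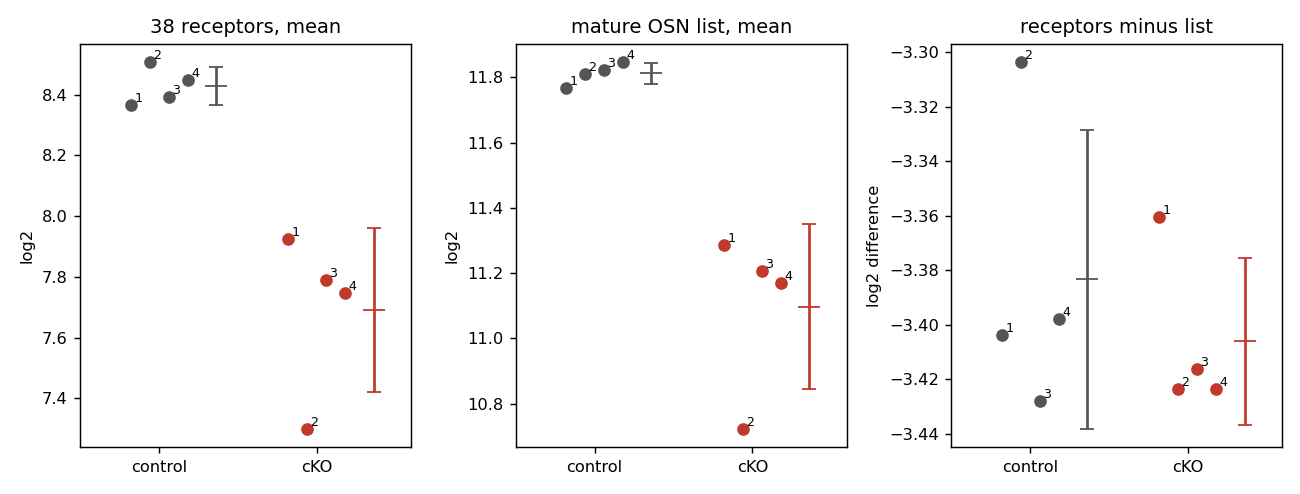
Mean log2 value per array of the 38 receptors (left), of the 23 mature OSN markers (middle) and their difference (right), with numbered points for controls (grey) and cKO mice (red), mean and SD beside them. The first 2 panels separate the groups by 0.74 and 0.71, and the third by 0.02, on a much finer axis.

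With the list mean subtracted from OR genes array by array, the median difference of the 38 moved to 0.01, while that of the other ORs stayed below 0 at -0.15. The list holds 23 genes chosen here, Adcy3, Rtp1 and Rtp2 of the OR choice list among them. The paper corrected with a much longer list of mature OSN mRNAs, for which it reports a smaller loss in this strain. A subtraction with that list was not run, so these values hold for the 23 genes only. After the subtraction the difference was below 0 for 18 of the 38 (47.4%) and for 62.9% of the other ORs. None of the 38 then passed an adjusted p under 0.01 by limma (0 genes, 21 with unadjusted p below 0.05), where 0.427% of all genes were lower and 0.0401% higher. Of the other ORs 3.99% were lower and 0.409% higher. At an adjusted p under 0.05, Olfr1340 alone was lower (-0.73, adjusted p = 0.0136), where 2.04% of all genes and 14.8% of the other ORs, the only other genes from which the list was subtracted, were. There were 5 higher genes (13.2%, against 0.371% of all genes and 2.87% of the other ORs): Olfr1362 (0.71, adjusted p = 0.0205), Olfr1350 (0.60, adjusted p = 0.0188), Olfr1367 (0.68), Olfr1413 (0.36) and Olfr1410 (0.31). As deposited each of these 5 had a fitted difference below 0, and Olfr1367 lay at background. Subtracted as a single constant of -0.71, the list left 0 lower at an adjusted p under 0.01 (0.125% of all genes, 0.102% of the other ORs). It left 1 higher, Olfr1367 (0.0753% and 1.23%). At 0.05 it left 0 lower (1.17% and 2.76%) and 3 higher (7.89% of the 38, against 0.346% and 3.79%). All cKO mice then lay below all controls in 4 genes (5.26% of all genes, 18.4% of the other ORs) and above in 4 (3.62% and 8.5%). With the subtraction per array the counts were 7 (5.69% of all genes, 26.8% of the other ORs) and 7 (3.66% and 9.01%). Of the families with more than 1 gene, MOR267 had the lowest median after subtraction (-0.54) and MOR208 the highest (0.26).

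**Figure D5:**
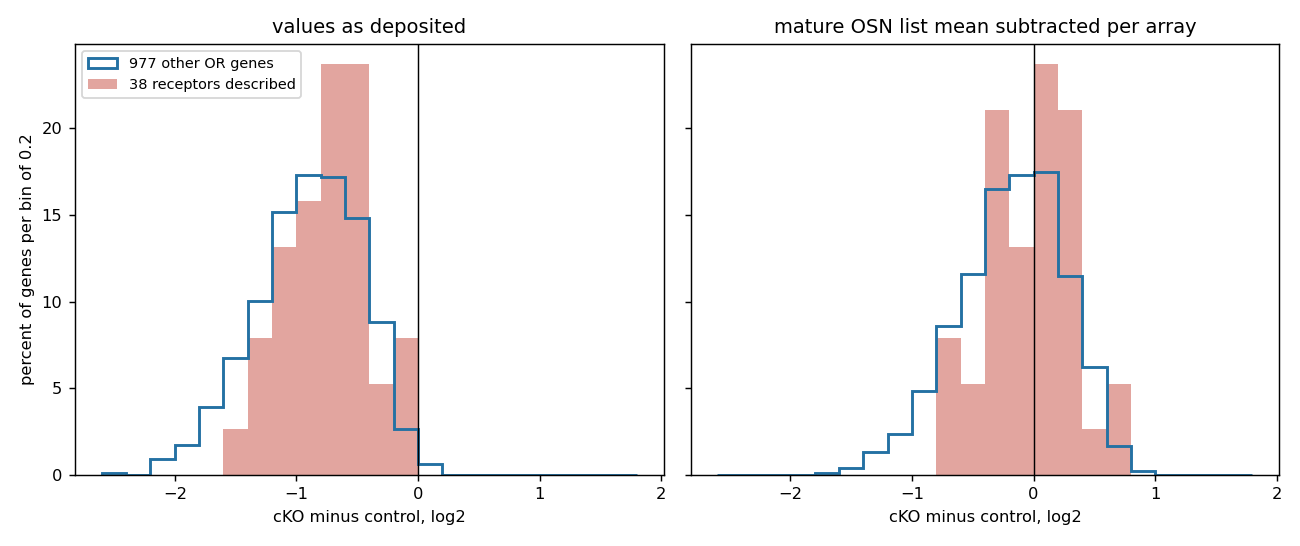
Share of genes (vertical axis, percent) per bin of 0.2 in the cKO minus control log2 difference (horizontal axis) for the 38 receptors (filled) and the 977 other OR genes (outline). As deposited (left) the medians are -0.71 and -0.86, and with the mature OSN list subtracted per array (right) they are 0.01 and -0.15.

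The other lists moved less. Of 19 immature OSN markers 1 fell, the microtubule regulator gene Stmn4 (-0.30, adjusted p = 0.00447), and the list as a whole differed by -0.08 on average. Of 19 genes known to act in OR choice, 1 fell, Adcy3, which is also a mature OSN marker. The cofactor gene Ldb1 differed by 0.00 (adjusted p = 0.997), Ebf1 by -0.00 (adjusted p = 0.987), Ebf4 by -0.46 (adjusted p = 0.0192) and the OR chaperone gene Rtp1 by -0.37 (adjusted p = 0.0327). Among 7 sustentacular cell, 4 ensheathing glia, 5 macrophage and 2 blood genes none passed by limma, with or without adjustment, or by the methods' t-test (0 genes each). Of 7 progenitor genes 0 passed by limma, 5 had an unadjusted p below 0.05, and the list differed by 0.09 on average. For 9 respiratory ciliated cell genes the list mean lay between 9.59 and 9.85 in cKO mice and between 9.90 and 9.98 in controls, a difference of -0.18, with 0 past the threshold by limma (4 with unadjusted p below 0.05), and its part in the receptor values was not tested.

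Genes next to the OR groups gave a local comparison. The nearest 2 measured genes on each side of the 7 groups that encode no chemoreceptor, 28 in all, had a median difference of 0.02. By limma and by the methods' t-test 0 passed (6 had an unadjusted p below 0.05 by limma), and 1 passed an adjusted p under 0.05. That was Rgs7, a regulator of G-protein signaling next to group b of chromosome 1 (-0.89, SE 0.20, adjusted p = 0.0358). Beside it Fmn2, an actin nucleator gene, differed by -0.29 (adjusted p = 0.0755), while on the other side of the group Crp and Apcs differed by -0.03 and 0.04.

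The control genotypes pooled above were also compared for the 38 genes. In a fit with 3 genotypes, 123Cre:Lhx2(fl/+) minus Lhx2(fl/+) gave 0 of the 38 by limma at an adjusted p under 0.01 (0% of all genes). With unadjusted p below 0.05 there were also 0 (2.25% of all genes higher and 5.53% lower with 123Cre). Differences ran from -0.38 (Olfr1364) to 0.37 (Olfr1357), with a median of 0.01 and 19 below 0. With 2 mice per genotype such differences are imprecise, and here genotype and title letter cannot be told apart.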

How the data were processed

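The authors hybridised olfactory mucosa RNA of 8 mice to GeneChip Mouse Gene 1.0 ST arrays and deposited log2 values for 28312 transcript clusters, reduced with Affymetrix Expression Console per the submitters' processing notes. For background correction, summarization and normalization the method is not given in the sources used, and the number of arrays limits the precision. Clusters with 1 gene symbol in the platform annotation (21759) were kept, and the cluster with the highest mean represented each gene (19928 genes, all 38 receptors with 1 cluster). Of these genes 19846 matched a RefSeq table of GRCm38.p6 by Entrez identifier, as did all 38. No filter on low values was applied.

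Differences between 4 cKO and 4 control arrays were tested over all genes with limma 3.58.1 (R 4.3.3, lmFit and eBayes, two-sided, Benjamini-Hochberg over all genes, threshold 0.01). The fit was tested on simulated data. Alternatives were other normalizations, subtraction of the mature OSN marker mean from OR genes, the title letter as block and array weights. Single control genotypes, each array left out and a t-test were further ones. The t-test took the deposited values, with Benjamini-Hochberg over all genes, whereas the study tested values normalized to its own list of mature OSN mRNAs. That procedure was not repeated here. The receptors, marker lists and tests were chosen with earlier results of these data known. Neighbouring genes, MOR103 genes outside the 38, the background level and the printed promoters were chosen after values were seen. Genes given in every mouse were those past the threshold, the 5 most and 5 least negative differences, the 3 highest and 3 lowest levels and the lone gene of a chromosome. Others named, such as Olfr1352 and Olfr1366, fall outside that rule and were picked for their values. Protein identities were not analysed here.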

Additional observations from a re-analysis of the deposited data

Results flagged for a closer look

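In 6 of 76 groups of 4 mice, 1 mouse lay so far from the other 3 that its gap to the nearest, as a share of the group's range, exceeded Dixon's critical value, which chance gives in about 1 of 20 groups. Of these, 4 concerned cKO mouse 2, which was low in Olfr1408 (7.45), Olfr1370 (8.32), Olfr1338 (6.40) and Olfr1346 (7.81). The others were control 4, high in Olfr1355 (6.84), and control 3, high in Olfr1338 (8.24).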

How the results depend on the processing

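The 6 receptors that fell also passed with quantile normalization, trended and robust eBayes, every cluster kept, arrays centred on genes other than chemoreceptors, array weights and the title letter as block, and without cKO mouse 1 or 2. The number that fell was 13 with the title letter as block, 25 at an adjusted p under 0.05, 3 without low genes (29 of the 38 remained in that fit), and 0 with the methods' t-test, with only Lhx2(fl/+) controls, with only 123Cre:Lhx2(fl/+) controls and with the mature OSN list subtracted in either way. In the fit without low genes Olfr1340, Olfr1342 and Olfr1357 passed, while Olfr1353, Olfr1355 and Olfr1356 had been removed as low and were not tested. Leaving out 1 mouse gave 0 to 16. No share over all genes was counted for the fits with single control genotypes or without low genes. Nor was it for those without a mouse other than cKO mouse 2, so these counts cannot set the 38 apart. The groups did not overlap in 24 to 34 genes under the other alternatives, but in 4 with the list subtracted as a constant and 7 array by array, where the median difference reversed to 0.0058 either way. Otherwise the median stayed between -0.78 and -0.55, except within letter B (-1.17).

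Among genes given in every mouse, either subtraction turned Olfr1353 (0.012), Olfr1329 (0.33), Olfr1413 (0.36), Olfr1350 (0.60), Olfr1367 (0.68) and Olfr1362 (0.71) positive. Olfr1362, near 0 from the start, was also positive with quantile normalization (0.065), array weights (0.015) and only Lhx2(fl/+) controls (0.089), and without cKO mouse 2, 3 or 4 or control 3 or 4 (with 1 mouse left out at a time it ran from -0.097 to 0.059). Olfr1367 was positive with only Lhx2(fl/+) controls (0.036) and without cKO mouse 4 or control 4 (range with 1 mouse left out -0.076 to 0.020), and Olfr1350 without cKO mouse 2 (range -0.24 to 0.049). The cause was not tested. The comparison of control genotypes gave 0 receptors under centring and quantile normalization as well. No paired analysis was possible because the replicate numbers were given in accession order.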
